A study of Mus musculus with 5 samples.

Results

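The genes described here are those of immune cells, cytokines and complement in forelimb muscle tissue of mouse embryos at E15.5. They were taken by gene symbol: CD antigens, histocompatibility genes, chemokines and their receptors, interleukins, Toll-like receptors, complement components, interferon-induced genes, Fc receptors, galectins, tumor necrosis factor (TNF) family genes and markers of mast cells and granulocytes. The rule found 102 of the 4743 genes listed for every sample. It reads names only, so it also took H2-Ke6, a steroid dehydrogenase that is named for its place in the histocompatibility region, and 4 genes of the C1q/TNF-related proteins and C1q-like proteins, which are secreted factors and not complement components. RNA was sequenced from 3 Noggin-deficient and 2 wild type samples, all of the C57BL/6 strain. Noggin is a secreted antagonist of bone morphogenetic proteins. The allele, the number of embryos per sample, their litters and their sex are not stated in the labels. P-values therefore reflect variation among these samples only, and some of that may be technical.

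Embryonic muscle and the connective tissue around it hold few immune cells, chiefly macrophages that arrive early and mast cells that settle in connective tissue and skin. Mast cells store proteases and histamine in granules. Neutrophil granule genes are switched on in myeloid precursors, which at this age are made in the liver. Interferon-induced genes form the antiviral programme that many cell types carry. Complement proteins are made mainly by the liver and also by connective tissue cells, and chemokines are made by stromal cells to guide leukocytes. Several interleukin-1 family cytokines and galectins are characteristic of epidermis.

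Values are an expression signal that the authors normalized, with no unit named, so levels are compared between samples within a gene and not between genes. Nearly every listed gene differs between the groups: the libraries did not overlap for 98.2% of all 4743 listed genes and for 102 of the 102 immune genes. The tables therefore appear to hold genes picked because these samples differed in them. Of the 3913 genes that reached 0.5 in 2 or more libraries, 98.0% passed limma's moderated test at a Benjamini-Hochberg adjusted p under 0.05. Of the immune genes, 91 met that minimum and 91 passed. That count says nothing particular about them, and 11 of the 91 met the minimum only through the group in which they were high. Prtn3, Cd5l, Cd3g, Cd7, Tnfrsf9, H2-Q10 and Ifit3 met it through the Noggin-deficient samples alone, and Il1f9, Tnf, Tnfrsf26 and Tlr9 through the wild type samples alone. Each of these could be called in its own direction only, so their values are given as a description, with no p. Direction and size carry the description that follows. If genes were picked on these same samples, an adjusted p does not hold its stated error rate. The p-values below, also those against a 1.5-fold change, therefore only set a difference beside the spread of its gene. They are not support that a gene differs. Fold changes are Noggin-deficient minus wild type on the scale of log2(value + 0.25), which understates the change of low genes.

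Other cell types moved with the genotype in the same samples. The sarcomere genes that mark the labelled tissue were present, 18 of 21 being listed with a summed value of 4739 to 4966 in the Noggin-deficient and 6869 to 6999 in the wild type samples, and 16 of 17 tested fell. All 24 tested liver genes rose, 19 of them having met the minimum only through the Noggin-deficient samples (summed value 155 to 158 against 18.2 to 19.8, with Serpina1a, Serpina1b, Serpina1c and Fgb listed at 0 in both wild type samples). All 22 tested epidermis genes fell (1407 to 1457 against 3440 to 3468). Of 12 tested erythroid genes 11 rose and 1 fell (256 to 263 against 121 to 126). Of 6 endothelial genes 5 rose and 1 fell (167 to 170 against 118). Over all tested genes 37.9% rose and 60.1% fell. Of 9 fibroblast genes 2 rose and 7 fell (5788 to 5813 against 7468 to 7574). Their median log2 change was -0.36, near the -0.28 of all tested genes. Under the 2 rescalings described below, 2 rose and 4 fell with median-of-ratios factors. With a trend on transcript length removed, 3 rose and 2 fell. The fibroblast fall thus lay close to the shift of all genes. The part of these cell types in the results below was not tested. In bulk tissue, fewer cells of a type and less RNA per cell cannot be told apart.

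The immune genes split almost evenly between higher and lower. Of the 91 tested, 48 rose and 43 fell, with a median log2 change of 0.34. Over all tested genes 37.9% rose and 60.1% fell, with a median of -0.28. Mast cell genes fell together (6 of 6), and among the interleukins and their receptors 3 rose and 15 fell. Most tested members rose among the myeloid (8 of 11), interferon (7 of 10), chemokine (5 of 6), complement (4 of 5) and antigen presentation genes (4 of 4). Galectins, TNF-related genes and other surface antigens held members of both directions. Without the 11 genes that met the minimum through 1 group, 41 members rose and 39 fell. Over all tested genes under the same exclusion, 1280 of 3571 rose and 2216 fell. The counts of rises among members were then 6 of 8 for myeloid, 6 of 9 for interferon and 3 of 3 for antigen presentation genes. No test of direction against group was made. Beyond 2-fold, 7 members were higher and 6 lower, where 3.73% and 7.16% of all tested genes were. Of these members, Prtn3, Cd5l, Cd7, Tnfrsf9 and H2-Q10 could only be called higher and Il1f9 only lower. Cxcl13 and Cd83 were the remaining rises. The shares over all tested genes include such genes too. Against a null of a 1.5-fold change, 17 of the 91 passed, beside 14.5% of all tested genes. Prtn3, Tnfrsf9, H2-Q10 and Il1f9, which met the minimum through 1 group, were among the 17. Rescaling the libraries by median-of-ratios factors raised the median of all genes by 0.25. The factors came from the listed genes themselves, so this shift of the median was set by construction. Then 48 immune genes rose and 30 fell, beside 38.0% and 32.5% of all tested genes (70.5% in either direction), so that 61.5% of the immune calls and 53.9% of all calls were higher, against 52.7% and 38.7% before. With a trend on transcript length removed, 46 rose and 33 fell, beside 34.9% and 37.1% of all genes (72.0% in either direction).

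**Figure D1:**
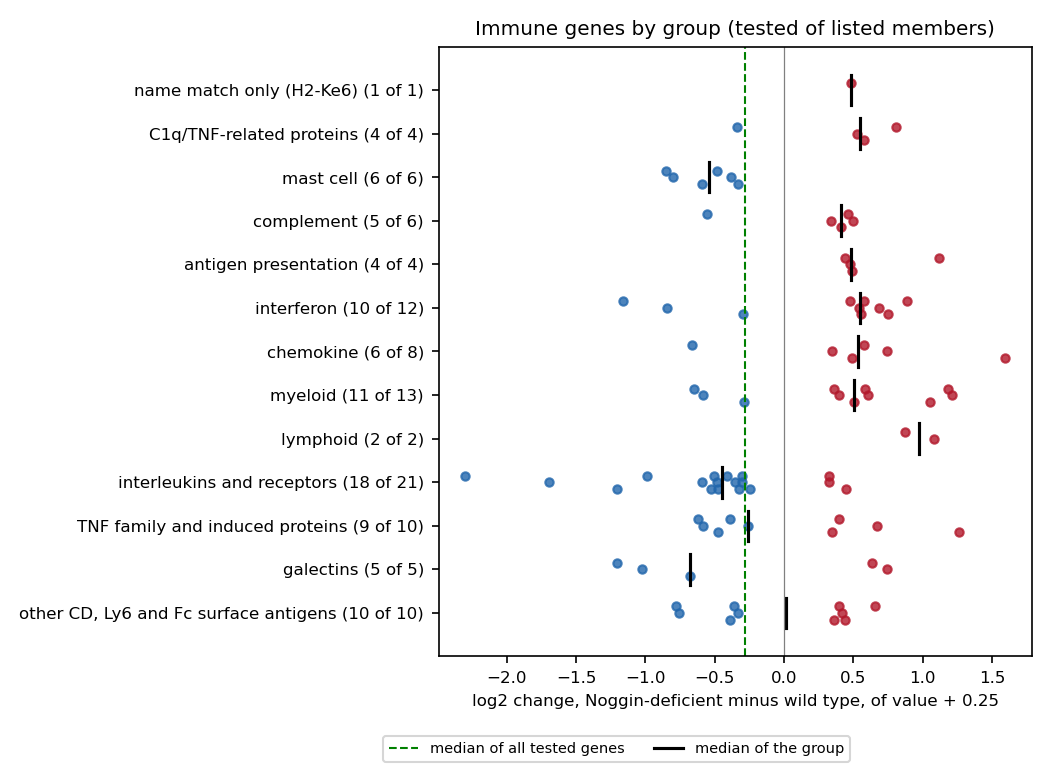
Log2 change of each tested immune gene (points, red for higher and blue for lower in Noggin-deficient samples) by group, with the group median as a black bar and the median of all 3913 tested genes as a dashed line. The 6 mast cell genes lie below 0, most myeloid, interferon, chemokine and complement genes lie above 0, and the interleukin group reaches furthest down, to -2.30.

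Mast cell genes were lower in every Noggin-deficient sample. Upstream windows of 2 of them are shown because the GATA factors that are known to act in mast cells bind a short motif that both carry. The windows hold the 250 bases before the RefSeq start in build GRCm38.p6, on the minus strand for both genes, at chr3:20242182-20242431 for Cpa3 and chr19:11623720-11623969 for Ms4a2, and capitals mark AGATAA on either strand.
Cpa3: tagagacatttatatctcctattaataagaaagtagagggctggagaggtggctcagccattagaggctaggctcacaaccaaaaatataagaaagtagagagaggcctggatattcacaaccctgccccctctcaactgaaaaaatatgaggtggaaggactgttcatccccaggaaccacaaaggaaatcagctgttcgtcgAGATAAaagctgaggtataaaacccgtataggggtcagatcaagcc
Ms4a2: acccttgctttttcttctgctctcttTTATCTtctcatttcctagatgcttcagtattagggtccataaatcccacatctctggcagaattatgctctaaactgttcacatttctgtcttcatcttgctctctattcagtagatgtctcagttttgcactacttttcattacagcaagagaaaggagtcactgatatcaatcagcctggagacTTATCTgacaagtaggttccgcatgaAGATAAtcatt
The motif begins 46 bases before the start in Cpa3 and at 224, 37 and 11 bases in Ms4a2. Of the 4 mast cell members with a window, 3 held it in at least 1 window, where 9.99% of 32851 windows of the same length did. The first count is of members, and Kit and Il1rl1 have more than 1 window. Outside the mast cell group, windows of Tlr9, Cd302, Cd3g, Il6ra, Il1f9, Il22ra1, Il20rb, Il1f5, Il5ra and Cd44 also held it. A match describes letters only and shows no binding.

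Cpa3, the carboxypeptidase stored in mast cell granules, stood at 128, 128 and 127 in the Noggin-deficient samples, below the 188 and 198 of the wild type samples. The groups lay far apart beside their spread, and the log2 change was -0.60 (SE 0.030, adjusted p = 1.8e-06). Tpsb2, a granule tryptase, had values of 85.8, 86.8 and 81.4 against 149 and 147, a log2 change of -0.80 (SE 0.034, adjusted p = 9e-07). The related tryptase gene Tpsab1 was near the lower limit of the listed values, at 0.38, 0.53 and 0.40 against 0.66 and 0.62, with a log2 change of -0.38 (adjusted p = 0.019). Reads of these tryptases may have been split between near-identical copies, so their separate values are uncertain. The change of Tpsab1 was -0.19 (adjusted p = 0.21) under median-of-ratios scaling.

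Genes of mast cell receptors fell as well. Il1rl1, the receptor of interleukin-33, had values of 2.36, 2.38 and 2.42 against 4.42 and 4.61, a log2 change of -0.85 (SE 0.055, adjusted p = 6.2e-06) that was -0.56 with the length trend removed. Ms4a2, the beta chain of the high-affinity IgE receptor, went from 1.07 in both wild type samples to 0.68, 0.66 and 0.74, a log2 change of -0.49 (adjusted p = 0.0012). Kit, the stem cell factor receptor, which mast cells share with melanocytes and blood precursors, went from 9.59 and 9.88 to 7.52, 7.60 and 7.86. Its log2 change of -0.34 (adjusted p = 0.00011) was the smallest of the group and was not called under median-of-ratios scaling (-0.07, adjusted p = 0.15) or with the length trend removed (-0.04, adjusted p = 0.34). Of 17 other mast cell genes 6 were listed, and the 5 tested fell, with a median of -0.81. Over all tested genes 60.1% fell, with a median of -0.28. Among the mast cell genes tested, the chymase genes Cma1 and Mcpt4 changed by -0.60 and -0.81. Hdc, which makes histamine, changed by -0.83 and Rab27b, a regulator of granule release, by -0.88. Srgn changed by -0.30. Under median-of-ratios scaling 4 were called lower, and Srgn was at -0.03 (adjusted p = 0.46). Mean wild type values of Cpa3, Tpsb2 and Cma1 were 1.51, 1.75 and 1.51 times those of the Noggin-deficient samples.

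**Figure D2:**
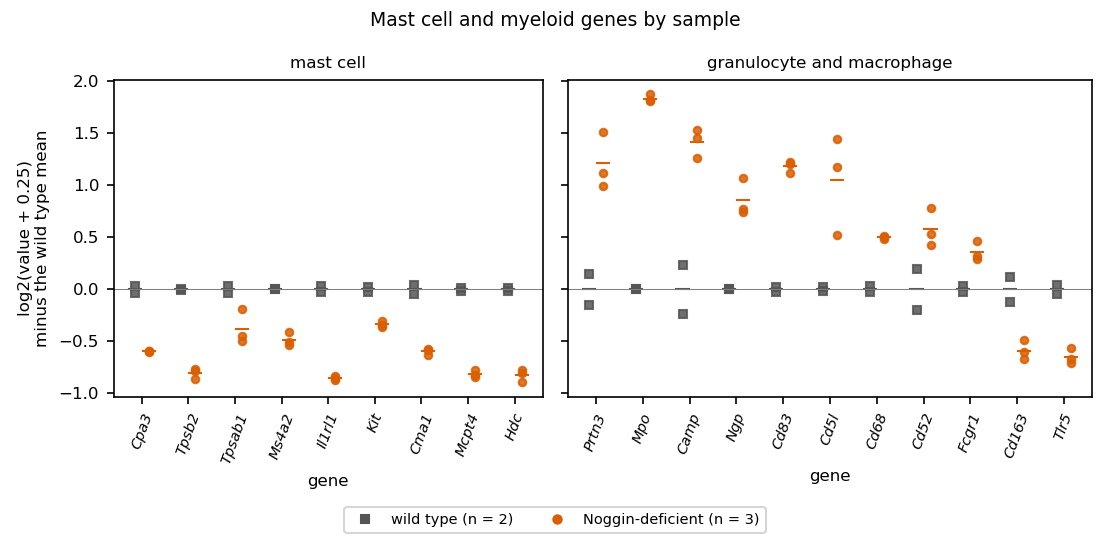
Log2(value + 0.25) of each sample minus the wild type mean of the gene (vertical axis). Mast cell genes are on the left, and granulocyte, macrophage and other myeloid genes on the right. Squares mark 2 wild type and circles 3 Noggin-deficient samples, with a bar for each mean. Mast cell genes lie below the wild type samples in all 3 Noggin-deficient samples, and Mpo, Camp, Prtn3 and Cd83 lie above them.

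Granule genes of neutrophil precursors had higher values in the Noggin-deficient samples, but Prtn3, Mpo and Camp met the minimum through those samples alone, so a rise was the only call they could give. Prtn3, the gene of proteinase 3, stood at 0.93, 0.83 and 1.30 in the Noggin-deficient against 0.35 and 0.24 in the wild type libraries, for a log2 change of 1.21. Elane, neutrophil elastase, lies next to Prtn3 in the genome and was under the minimum for testing, at 0.25, 0.47 and 0.27 against 0.10 and a listed 0. Mpo, the myeloperoxidase of the same granules, had values of 1.01, 1.02 and 1.07 against 0.11 in both wild type samples, a log2 change of 1.83. Camp, an antimicrobial peptide of later granules, had a log2 change of 1.42. Ngp, a granule protein that reached the minimum in both groups, rose by 0.86 (adjusted p = 0.00017). Of 38 further myeloid genes 15 were listed, of which 13 rose and 2 fell (median 0.52), and 10 rose with the length trend removed. Among the 13, 3 met the minimum only through the Noggin-deficient samples. The lipid carrier Apoe rose by 0.56 and Spi1, the transcription factor PU.1, by 0.49. Ncf1, a subunit of the phagocyte oxidase, fell, at -0.33, and was at -0.07 under median-of-ratios scaling. These same samples had the higher liver and erythroid values given above.

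Genes of macrophages and other leukocytes in the myeloid group were mostly higher. Cd83, a surface protein of activated dendritic cells and B cells, had values of 3.98, 3.93 and 3.67 against 1.53 and 1.59, so that every Noggin-deficient value was over 2-fold above both wild type values. Its log2 change was 1.18 (SE 0.063, adjusted p = 2.5e-06), and it held against a 1.5-fold change (adjusted p = 0.00021). Cd68, a lysosomal protein of macrophages, had values of 14.5, 14.8 and 14.7 against 10.1 and 10.5. Its log2 change of 0.50 (adjusted p = 7.8e-06) was 0.24 with the length trend removed. Fcgr1, the high-affinity IgG receptor, rose by 0.36, Ms4a7, of macrophages, by 0.61, and Cd302, a lectin receptor, by 0.40. Cd5l, a secreted protein of tissue macrophages, was spread widely within the Noggin-deficient samples, at 0.77, 0.60 and 0.29 against 0.13 and 0.12, with a log2 change of 1.05. Cd52, a small surface protein of leukocytes, had values of 7.33, 9.46 and 7.92 against 4.67 and 6.23. Its log2 change of 0.58 was 0.03 (adjusted p = 0.84) once the length trend was removed.

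A few myeloid genes were lower. Cd163, a scavenger receptor of resident macrophages, had values of 0.45, 0.42 and 0.51 against 0.91 and 0.73, a log2 change of -0.59 (adjusted p = 0.0018). The Toll-like receptor genes Tlr5 and Tlr9, sensors of flagellin and of unmethylated DNA, changed by -0.65 and -0.29. That of Tlr9 was -0.11 under median-of-ratios scaling and -0.15 with the length trend removed, and was not called under either. Cd33, an inhibitory lectin, was under the minimum, at 0.36 to 0.44 against 0.46 and 0.54. Genes that define macrophages and other leukocytes most broadly could not be analysed here. Ptprc, Tyrobp, Csf1r, Lyz2, Mrc1, Lyve1, Ctsg, C1qa, C1qb and C1qc were not found under these symbols among the 4743 genes.

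Interferon-induced genes were mostly higher. Windows of the 3 members that carry the interferon-stimulated response element, the motif bound by the factors that interferon activates, are shown with the motif in capitals. They hold the 250 bases before the RefSeq start in build GRCm38.p6, at chr4:156200819-156201068 on the minus strand for Isg15, chr19:34583279-34583528 on the plus strand for Ifit3 and chr5:120907526-120907775 on the minus strand for Oas1a.
Isg15: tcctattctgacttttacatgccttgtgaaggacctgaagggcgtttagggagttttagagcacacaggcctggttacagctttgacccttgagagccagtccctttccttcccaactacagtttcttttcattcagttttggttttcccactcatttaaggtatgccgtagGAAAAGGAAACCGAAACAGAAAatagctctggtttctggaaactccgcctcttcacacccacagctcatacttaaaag
Ifit3: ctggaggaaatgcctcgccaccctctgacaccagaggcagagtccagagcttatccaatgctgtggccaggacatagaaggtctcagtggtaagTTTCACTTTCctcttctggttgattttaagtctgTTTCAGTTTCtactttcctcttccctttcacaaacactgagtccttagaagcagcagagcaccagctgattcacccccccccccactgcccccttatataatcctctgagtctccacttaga
Oas1a: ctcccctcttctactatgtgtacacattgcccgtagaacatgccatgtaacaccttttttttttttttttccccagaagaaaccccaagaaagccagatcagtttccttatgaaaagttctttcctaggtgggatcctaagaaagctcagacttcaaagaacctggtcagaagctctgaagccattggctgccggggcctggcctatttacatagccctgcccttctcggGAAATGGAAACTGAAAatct
The motif searched was 2 copies of GAAA with any 2 bases between them, on both strands, with overlapping matches counted. It began 78, 72 and 66 bases before the start in Isg15, 156 and 122 bases in Ifit3 and 20 and 14 bases in Oas1a, the matches of Isg15 and of Oas1a overlapping one another. Of the 9 interferon members with a window, 3 held it, and 2.98% of 32851 windows of that length did. Over all 102 immune genes, 79 had a window and 4 of these held the motif, Cd59a being the other.

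Isg15, a ubiquitin-like protein conjugated to others after interferon, stood at 1.64, 1.16 and 2.10 in the Noggin-deficient against 0.73 and 0.76 in the wild type samples. The wild type samples were close together and the Noggin-deficient ones spread, and the log2 change was 0.89 (SE 0.19, adjusted p = 0.0027), and 0.47 (adjusted p = 0.047) with the length trend removed. Ifit3, an antiviral protein, had values of 1, 0.88 and 0.85 against 0.48 and 0.40, a log2 change of 0.75. Oas1a, an enzyme that makes the activator of RNase L, had values of 0.94, 1.02 and 1.02 against 0.62 and 0.59, a log2 change of 0.54 (adjusted p = 0.00068). Its relative Oasl2 rose by 0.55, the membrane protein Ifitm1 by 0.68 (0.31 with the length trend removed) and the transcription factor Irf5 by 0.48. Ifi27l2a, of mitochondria, had a log2 change of 0.58 that was -0.01 (adjusted p = 0.94) once the length trend was removed.

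Other genes of this group fell. Ifi202b, a DNA-binding protein from a family of interferon-inducible genes, had values of 0.81, 0.57 and 0.96 against 2.28 and 1.80, a log2 change of -1.16 (SE 0.17, adjusted p = 0.00038). Ifih1, a sensor of double-stranded RNA, changed by -0.30 and turned to 0.01 (adjusted p = 0.95) with the length trend removed. Of 37 further interferon pathway genes 10 were listed, of which 9 rose and 1 was not called (median 0.44). With the length trend removed 6 rose, and Bst2, a membrane tether of viruses, went from 0.40 to -0.0010 (adjusted p = 0.98). Gbp2, a GTPase, rose by 0.75 and Psmb9, of the immunoproteasome, by 0.51. Rsad2, an antiviral enzyme, was the one not called, at -0.24 (adjusted p = 0.11).

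Of the chemokine genes, the 5 tested ligands rose and the 1 tested receptor fell. Cxcl13, a ligand made by stromal cells that draws B cells, stood at 6.98, 6.90 and 6.69 in the Noggin-deficient against 2.09 and 2.12 in the wild type samples, more than 3-fold apart. Its log2 change of 1.59 (SE 0.048, adjusted p = 1.7e-07) held against a 1.5-fold change (adjusted p = 2.3e-06). Cxcl12, the ligand that guides blood precursors and migrating muscle precursors, had values of 25.1, 25.4 and 24.9 against 17.7 and 18.01, a log2 change of 0.49 (SE 0.028, adjusted p = 3.7e-06). Ccl11, eotaxin, had values of 6.82, 6.96 and 6.55 against 3.82 and 4.09, a log2 change of 0.74. Ccl2, which draws monocytes and neighbours Ccl11 in the genome, rose by 0.58 and Ccl9 by 0.34. The one tested receptor, Ccr4, of T cells, had values of 0.47, 0.55 and 0.40 against 0.95 and 0.84, a log2 change of -0.67 (adjusted p = 0.0011). Ccl22, a ligand of Ccr4, was under the minimum for testing, at 0.12 to 0.15 against 0.03 and 0.01, and so was Cxcl9, at 0.30 to 0.39 against 0.19 and 0.24. Cxcr4, the receptor of Cxcl12, was not found under this symbol among the 4743 genes. Of 19 further genes of the system 4 were tested, Arrb2 rising by 0.41 and Dpp4, a peptidase that cleaves chemokines, Gpr35 and Gnai3 falling by 0.66, 0.44 and 0.25. Gpr35 met the minimum only through the wild type samples, so a fall was the only call it could give. Under median-of-ratios scaling Gpr35 was at -0.26 and Gnai3 at 0.03 (adjusted p = 0.57). With the length trend removed Gpr35 was at -0.23, and it was not called under either setting.

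**Figure D3:**
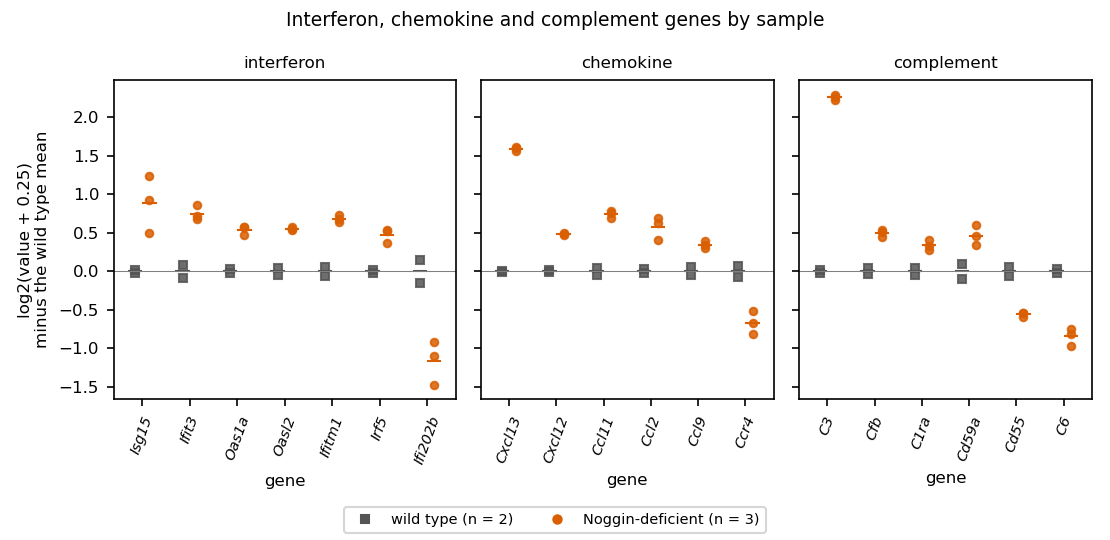
Log2(value + 0.25) of each sample minus the wild type mean of the gene (vertical axis) for interferon, chemokine and complement genes, with squares for 2 wild type and circles for 3 Noggin-deficient samples and a bar for each mean. C3 and Cxcl13 stand highest, and Ifi202b, Ccr4, Cd55 and C6 lie below the wild type samples.

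Of the 5 tested complement members 4 rose, among them proteases of the classical and alternative pathways, and Cd55, a regulator of the cascade, fell. Cfb, the protease of the alternative pathway, stood at 2.45, 2.51 and 2.34 in the Noggin-deficient against 1.60 and 1.71 in the wild type libraries, for a log2 change of 0.49 (SE 0.069, adjusted p = 0.00027). C1ra, a protease of the classical pathway, had values of 1.98, 2.11 and 1.89 against 1.58 and 1.47, a log2 change of 0.34 (adjusted p = 0.0035), and its copy C1rb one of 0.41 (adjusted p = 0.021). The call of C1rb was lost without Noggin-deficient replicate 2 (0.30, adjusted p = 0.052) and without wild type replicate 2 (0.29, adjusted p = 0.15). The authors' counting may have split reads between C1ra and C1rb, so their separate values are uncertain. Cfi, the protease that inactivates C3b, was under the minimum, at 0.44, 0.42 and 0.48 against 0.02 and 0.01. Of the membrane regulators, Cd59a, which blocks the terminal pore, had values of 3.71, 4.05 and 4.50 against 3.10 and 2.69, a log2 change of 0.46 (adjusted p = 0.0017). Cd55, which breaks up the convertases, had values of 5.12, 5.27 and 5.30 against 7.50 and 8.15, a log2 change of -0.56 (SE 0.049, adjusted p = 2.8e-05).

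Of 30 further complement genes 15 were listed and 8 tested, 7 rising and 1 falling (median 0.45). C3, on which all pathways converge, had values of 4.98, 5.22 and 5.08 against 0.85 and 0.88, a log2 change of 2.26 (SE 0.059, adjusted p = 9.1e-08). Clu, an inhibitor of the terminal complex, rose by 0.53, and C2, of the classical pathway, by 0.48. Colec11, a lectin that starts the lectin pathway, met the minimum only through the Noggin-deficient samples and changed by 0.78. C6, of the terminal pore, had values of 0.69, 0.60 and 0.74 against 1.44 and 1.38, a log2 change of -0.84. C8a, C8b, Cpn1 and Cpn2, made in liver, were listed at 0 in both wild type samples and at 0.02 to 0.19 in the Noggin-deficient samples. The liver genes, among them Vtn of this same list, rose in the same samples.

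Genes of the interleukin-1 family and its receptors were lower without exception among those listed. As deposited, 8 of 8 tested members fell, beside 60.1% of all tested genes. Il1rl1, already counted with the mast cell genes, was among them, and Il1f9 met the minimum through the wild type samples alone. Under median-of-ratios scaling 7 fell and 1 was not called, beside 32.5% of all genes lower. With the length trend removed the counts were again 7 and 1, beside 37.1%. Il1f9, the gene of interleukin-36 gamma, stood at 0.16, 0.06 and 0.05 in the Noggin-deficient against 1.12 and 1.75 in the wild type samples. Its log2 change was -2.30. Il1f5, the antagonist of the interleukin-36 receptor, had values of 1.15, 1.13 and 1.10 against 4.60 and 3.83, a log2 change of -1.69 (SE 0.088, adjusted p = 2.1e-06). Agonist and antagonist were thus both lower. Il1f10, of the same family, was under the minimum, at 0.04 in each Noggin-deficient sample against 0.27 and 0.25. Il1rn, the antagonist of the interleukin-1 receptor, had values of 1.18, 1.36 and 1.56 against 2.22 and 2.14, a log2 change of -0.59 (adjusted p = 0.001).

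Receptors of the family were lower as well. Il1rl2, the interleukin-36 receptor, changed by -0.52 (adjusted p = 0.0011), Il1rap, the shared co-receptor, by -0.48, the decoy receptor Il1r2 by -0.51 and the signalling receptor Il1r1 by -0.30, the last turning to 0.02 (adjusted p = 0.77) with the length trend removed. The genes lie in clusters: Il1r2, Il1r1, Il1rl2 and Il1rl1 neighbour each other on chromosome 1, and Il1f9, Il1f5, Il1f10 and Il1rn on chromosome 2, with at most 10 protein-coding genes between neighbours in the RefSeq order of GRCm38.p6. Epidermis genes, which fell in the same samples, were given above.

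**Figure D4:**
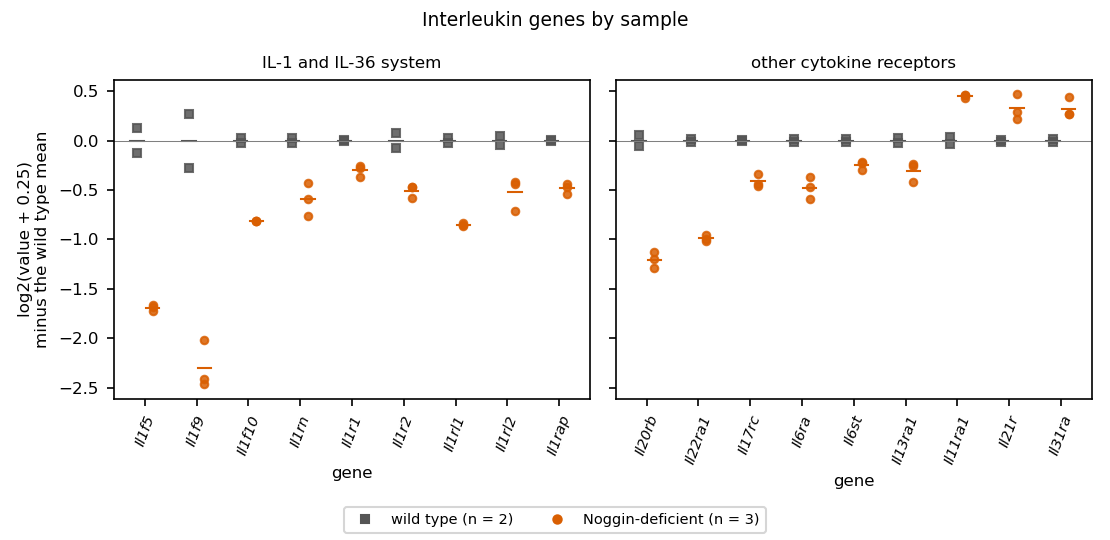
Log2(value + 0.25) of each sample minus the wild type mean of the gene (vertical axis) for interleukin-1 family genes on the left and other cytokine receptors on the right, with squares for 2 wild type and circles for 3 Noggin-deficient samples and a bar for each mean. Il1f9 and Il1f5 lie lowest, followed by Il20rb and Il22ra1, and Il11ra1, Il21r and Il31ra lie above the wild type samples.

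Receptors of other interleukins also fell for the most part. Il20rb, a receptor subunit for interleukins 20 and 24 in skin, had values of 2.94, 2.78 and 2.59 against 6.42 and 6.99, a log2 change of -1.20 (SE 0.068, adjusted p = 3.2e-06). Il22ra1, which pairs with Il10rb to bind interleukin-22 on epithelia, had values of 0.70, 0.67 and 0.66 against 1.57 and 1.61, a log2 change of -0.99. Il17rc, Il6ra, Il12rb2, Il13ra1 and the cytokine Il34 changed by -0.41, -0.48, -0.36, -0.30 and -0.32. Of these, Il12rb2, Il13ra1 and Il34 were not called under median-of-ratios scaling (adjusted p = 0.38, 0.6 and 0.38), nor Il6ra with the length trend removed (adjusted p = 0.37). Il6st, the signal-transducing subunit gp130, changed by -0.25, and turned to 0.02 (adjusted p = 0.61) under median-of-ratios scaling and to 0.14 (adjusted p = 0.0054) with the length trend removed, where it was called higher. The rises were Il11ra1, the interleukin-11 receptor of connective tissue, from 52.8 and 55.7 to 74.5, 73.1 and 74.8 (log2 change 0.45, SE 0.031, adjusted p = 9.1e-06), Il21r at 0.33 and Il31ra at 0.32. Il15ra and Il5ra were under the minimum, at 0.02 to 0.17 in the Noggin-deficient and 0.14 to 0.23 in the wild type samples. Of 57 cytokine and NF-kB signalling genes 14 were tested, of which 6 rose, 7 fell and 1 was not called (median -0.23, and 0.01 under median-of-ratios scaling). Rel, a subunit of NF-kB, changed by -0.92 and Traf6, an adaptor of the interleukin-1 and Toll-like receptors, by -0.53, while Socs2, a feedback inhibitor, rose by 0.55 and Clcf1, a cytokine that signals through gp130, by 0.51.

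Of 9 tested genes of the TNF family and of TNF-induced or related proteins, 4 rose and 5 fell. Tnfaip6, Tnfaip8l1 and Tnfaip8l2 among them are not ligands or receptors of the family. Tnfrsf9, the costimulatory receptor 4-1BB, had values of 0.63, 0.72 and 0.53 against 0.12 and 0.11, a log2 change of 1.26. Tnf itself had values of 0.31, 0.48 and 0.39 against 0.75 and 0.72, a log2 change of -0.62. Tnfrsf11b, the gene of osteoprotegerin, a decoy that restrains osteoclast formation, had values of 1.05, 1.11 and 0.84 against 1.46 and 1.79, a log2 change of -0.59 (adjusted p = 0.0026). Its ligand Tnfsf11, RANKL, was under the minimum, at 0.45, 0.45 and 0.62 against 0.31 and 0.18. Tnfaip8l2, a negative regulator of immune receptors, rose by 0.67, Tnfaip8l1 by 0.40 and Tnfrsf25 by 0.34, the last at 0.18 (adjusted p = 0.097) with the length trend removed. Tnfaip6, a hyaluronan-binding protein, changed by -0.39 and Tnfrsf26 by -0.48, the latter at -0.30 and not called under median-of-ratios scaling. Tnfrsf12a, the receptor of TWEAK, was at -0.26, and turned to 0.01 under median-of-ratios scaling.

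Of 5 galectin genes and genes named after galectins 2 rose and 3 fell, and 1 of the rises, Lgals3bp, is not a galectin. Lgals7, the galectin of stratified epithelia, had values of 90.5, 89.3 and 89.0 against 203 and 211, a log2 change of -1.21 (SE 0.028, adjusted p = 6.9e-08). Lgals3, of macrophages and epithelia, had values of 19.4, 19.8 and 17.7 against 39.0 and 38.4, a log2 change of -1.02, and Lgalsl changed by -0.68. In the opposite direction, Lgals12, of fat cells, had values of 2.18, 2.22 and 2.25 against 1.25 and 1.44, a log2 change of 0.63, and Lgals3bp, which encodes a secreted glycoprotein that binds galectin-3, rose by 0.74.

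The 4 antigen presentation genes rose, H2-Q10 having met the minimum through the Noggin-deficient samples alone. H2-Q10, a secreted class I molecule made in liver, had values of 0.82, 0.94 and 0.91 against 0.26 and 0.29, a log2 change of 1.12. The class II genes H2-Aa and H2-Eb1, neighbours in the genome, rose by 0.47 and 0.49, and H2-M5 by 0.44. Reads of histocompatibility genes may have been shared between relatives, so single genes are uncertain. The 2 lymphoid genes were under 0.5 in both wild type samples, so a rise was the only call they could give: Cd3g, of the T cell receptor complex, had values of 0.59, 0.49 and 0.61 against 0.16 and 0.23, a log2 change of 0.87, and Cd7, of T and natural killer cells, 0.90, 0.94 and 0.64 against 0.39 and 0.15, a log2 change of 1.08.

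Of the 10 other surface antigens 5 rose and 5 fell. Cd44, the hyaluronan receptor, had values of 18.6, 18.6 and 18.4 against 31.8 and 31.2, a log2 change of -0.76 (SE 0.028, adjusted p = 4.4e-07), and Cd109, a membrane protein of epidermis and endothelium that restrains TGF-beta signalling, one of -0.78. Ly6a, Cd34, of endothelium and progenitors, and Cd47, a signal against engulfment, changed by -0.39, -0.36 and -0.33, the last at -0.07 (adjusted p = 0.43) under median-of-ratios scaling. Ly6h, of the nervous system, rose by 0.66, Cd40, a TNF receptor, by 0.44, Cd320, a receptor for vitamin B12 uptake, by 0.41, Cd36, a fatty acid transporter of endothelium and fat cells, by 0.39 and Fcgrt, the neonatal Fc receptor, by 0.36. Of the genes taken by name alone, C1ql1, C1qtnf4 and C1qtnf9 rose by 0.81, 0.57 and 0.53, C1qtnf1 was at -0.34 (and at -0.08, adjusted p = 0.18, under median-of-ratios scaling), and H2-Ke6 rose by 0.48.

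Rescaling shifted the group medians, and with the length trend removed the log2 change of 30 of the 91 members moved by over 1.5 times. As deposited, they were -0.68 for genes of the galectin group, -0.54 for mast cell genes and -0.44 for interleukins, and 0.50 for myeloid, 0.53 for chemokine and 0.55 for interferon genes. Under median-of-ratios scaling the mast cell and interleukin medians were -0.30 and -0.19, beside -0.03 for all genes, and with the length trend removed -0.54 and -0.31, beside -0.01. Both settings center the change of all genes by construction, so the -0.03 and -0.01 are not results. Those of the myeloid and interferon genes fell to 0.24 and 0.36 with the length trend removed.

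**Figure D5:**
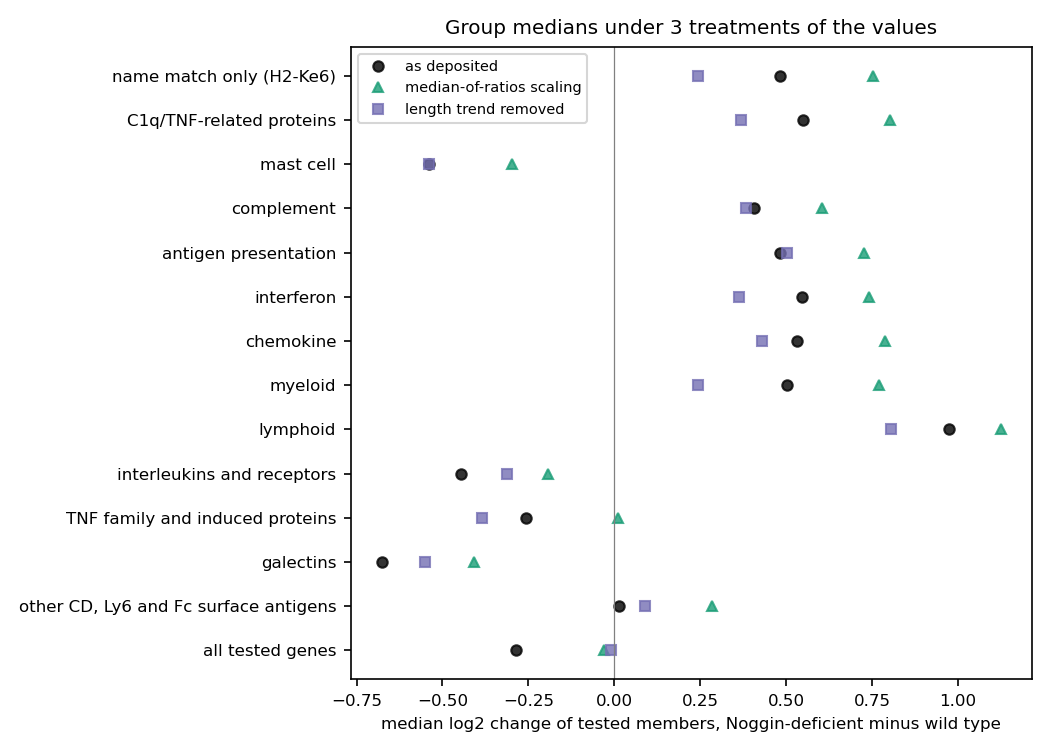
Median log2 change of the tested members of each group, and of all tested genes, for the values as deposited (circles), after median-of-ratios scaling (triangles) and with the trend on transcript length removed (squares). Mast cell, interleukin and galectin medians stay below 0 and myeloid, interferon, chemokine and complement medians above 0 under all 3, while the median of the TNF family and related proteins crosses 0.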

How the data were processed

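RNA was measured by stranded mRNA sequencing in 3 samples labelled Noggin-deficient and 2 labelled wild type, with groups and numbers from the titles. The deposited values are a normalized signal per gene, in a unit that is not named. The submitters' processing notes list STAR 2.4.2a, DESeq2 and build mm9, with no role. Counter, annotation, gene selection and depth were not stated, so no counting interval was possible. The listed values summed to 92210 to 93695 in Noggin-deficient and 100792 to 102783 in wild type samples.

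Log2(value + 0.25) was fitted with limma 3.58.1 in R 4.3.3 (moderated test with intensity trend) on the 3913 genes with at least 0.5 in at least 2 libraries, and p-values were adjusted by Benjamini-Hochberg over all of them. The code was tested on simulated data. Transcript lengths, the longest per gene in GENCODE M21, matched 94.1% of the listed genes. Promoter windows and gene order came from RefSeq GRCm38.p6, and no coordinate was converted.

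Members, groups and lists were chosen with earlier results of these data known, and gene groups were corrected after the symbols were seen (Cd34, Cd302 and Cd320 had matched a T cell pattern, and Cd36, Cd5l, Fcgrt, H2-Ke6 and the Tnfaip8-like genes were moved). The rule named 61 of 91 tested members: those changed by at least 1, the 3 largest rises and falls per group, all mast cell and complement genes, and 16 set genes. From each list of other pathway genes it took the 2 largest rises and falls. Further members were named after their values were seen. Values of a few genes are not reported here.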

Additional observations from a re-analysis of the deposited data

How the results depend on the processing

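Of the 91 immune genes called, 48 higher and 43 lower, the counts stayed within 1.5 times under every alternative tried except 2. Against a 1.5-fold change, 17 were called, 5 higher and 12 lower, and 569 of all genes. Prtn3, Tnfrsf9 and H2-Q10 among the 5 and Il1f9 among the 12 could only be called in their own direction. With a minimum of 1 in 3 or more libraries, 28 lower genes were called, because fewer were tested. Leaving out 1 library at a time gave 81 to 89 calls, and 3458 to 3767 over all genes. Among the 61 members named by rule, it ended the calls of Ifih1 and Tpsab1 without either wild type library. It also ended those of Tnfrsf26 without Noggin-deficient replicate 2 or 3, and of C1rb as given above. Losses among members outside the 61, and members that no longer met the minimum, are not in this list. Leaving out a wild type library left 1 sample in that group. With the replicate number as a block, 87 immune genes and 3772 of all genes were called. The labels do not say that a number pairs samples, and deviations of same-numbered samples correlated at -0.13 and -0.062. Median-of-ratios scaling lost 13 calls and length removal 12. Of the 13 group medians 9 were above 0, and 8 to 10 under the alternatives. The TNF family median (-0.26) turned to 0.043 with no filter and with the stricter filter and to 0.011 under median-of-ratios scaling. It ranged from -0.32 to 0.39 with 1 library left out, above 0 without either wild type library. Without either of those, Tnf and Tnfrsf26, which fell, no longer met the minimum, so fewer genes entered the median. The filter settings also changed which members entered it. The median of other surface antigens (0.013) turned to -0.0076 with a pseudocount of 1, to -0.00023 with the replicate block or without Noggin-deficient replicate 3, and to -0.00065 without wild type replicate 1, its range with 1 library left out reaching 0.045. With the length trend removed Ifih1 turned to 0.0069, Il1r1 to 0.018, Ifi27l2a to -0.0074 and Il6st to 0.14, called higher, and under median-of-ratios scaling Tnfrsf12a and Il6st turned to 0.011 and 0.024. The cause was not tested. The unknown depth limits the low genes most.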

Other observations

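Of the 11 immune genes under the minimum for testing, 6 were higher and 5 lower in every Noggin-deficient sample. Within the Oas1 cluster on chromosome 5 the listed genes parted: Oas1f stood at 0.39 and 0.61 in the wild type samples and at 0.03, 0.02 and a listed 0 in the Noggin-deficient samples, whereas Oas1b stood at 0.07 and 0.06 against 0.19, 0.13 and 0.20, and Oas1a rose. Near-identical copies make the split of reads among these genes uncertain, and their differences were not tested.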
